A study of Mus musculus with 9 samples.

Results

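Autophagy and lysosome biogenesis genes were examined as a fixed list of 42 mouse genes in RNA-seq data from type 1 invariant natural killer T cells, called iNKT1 cells. The list was matched by gene symbol to the deposited table of 14004 genes. A row was found for 41 of the 42, and Atg4c is not analysed here. Each of the 3 groups, thymus, liver and spleen, held 3 libraries of iNKT1 cells, 9 in all. All 9 came from C57BL/6 mice labelled Tbx21CreTg;Rosa26-LSL-YFP+/+ with no treatment. Tbx21 encodes T-bet, so Cre in these mice is driven from a gene of the type 1 programme and switches on the YFP reporter, and the thymus, liver and spleen groups share both alleles. The labels give no age and do not say whether libraries came from separate animals, so p-values measure only the spread between these libraries, which may be technical.

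Autophagy encloses cytoplasm in a double membrane, the autophagosome, which then fuses with the lysosome, where hydrolases break the contents down. The ULK1 complex starts the process, the class III PI3-kinase complex marks the membrane, ATG9 and ATG2 supply lipid, and 2 ubiquitin-like conjugation systems attach ATG8 proteins (the LC3 and GABARAP proteins) to it. TFEB and TFE3 are transcription factors that are held in the cytoplasm by mTORC1 kinase activity and that activate lysosomal and autophagy genes when released. In mice, iNKT cells depend on autophagy for their development and survival in the thymus.

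The binding site of TFEB and TFE3, the CLEAR element, has the palindrome TCACGTGA at its core, which itself contains the E-box CACGTG. RefSeq promoters of build GRCm38.p6, taken as 250 bases before to 50 bases after the gene start, were on hand for 35 of the 42 genes and were searched on both strands. CACGTG occurred in 7 of the 35 (20%), namely Atg14, Atg3, Atg5, Atg7, Ctsd, Ctsl and Mcoln1, against 8.09% of the 27025 genes with a promoter. TCACGTGA occurred in 3 of the 35 (8.57%) against 1.13% of all genes. TCACGTGA with a G before it and a C after it, the 10-base form, occurred in 0 of the 35 and in 0.37% of all genes. The stretches around TCACGTGA are shown because they hold the core of the site that TFEB and TFE3, themselves in the list, can bind. They are 30 bases each, read 5′ to 3′ on the gene's strand, with the motif in capitals.
Atg3, chr16:45158746-45158775, plus strand: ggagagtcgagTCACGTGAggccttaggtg
Ctsd, chr7:142387908-142387937, minus strand: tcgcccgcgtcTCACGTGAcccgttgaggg
Mcoln1, chr8:3500462-3500491, plus strand: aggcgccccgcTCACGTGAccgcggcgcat
The motif lay 64, 91 and 38 bases before the RefSeq start in Atg3, Ctsd and Mcoln1, respectively. GENCODE places the starts of Ctsd (142388038) and Mcoln1 (3500457) further upstream, so that both motifs fall inside the GENCODE gene. A match is a description of the letters and not evidence of binding.

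All values are the authors' normalised read counts. Recovered reads per library ran from 18503326 to 27717733 (thymus), 3873626 to 31562432 (liver) and 32456068 to 39541969 (spleen). Liver replicate 3 was the shallowest, and 1 read there was worth 6.04 units against 0.6 to 1.25 units in the other 8 libraries. All 10 T cell and iNKT1 marker genes were detected in every library. Of 16 myeloid markers 8 were in the table, and their summed value was 4627 in spleen replicate 1 and between 11.8 and 703 in the other 8 libraries. Of 8 B cell and plasma cell markers 7 were in the table, with sums of 12118 in liver replicate 1 and 7185 in spleen replicate 1 against 34.9 to 508 elsewhere. Jchain alone gave 11333 and 4634 of these sums, respectively. The hepatocyte sum over 6 of 8 markers was 1390 to 1717 in the liver libraries, 110 to 868 in those of the thymus and 0.525 to 40.5 in those of the spleen. Trf gave 110, 598 and 205 of the thymus sums and 43.5, 7.69 and 19.3 of the liver sums. Alb had no read in thymus replicate 1 and was 268 and 84.0 in thymus replicates 2 and 3. In the liver Alb was 1288, 1588 and 1172. The erythroid sum over 5 of 6 markers was at most 606, and the sum over 4 of 6 immature thymocyte markers ran from 1512 to 10080. Cd4 made up most of that sum in every library. In thymus replicate 3, Rag1 was 486 (388 reads) and Dntt 11.3 (9 reads). Neither had more than 1 read in any of the other 8 libraries.

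Averaged over the 41 genes, the mean log2(value + 1) was 7.73, 7.74 and 8.81 in the thymus, 8.85, 9.01 and 8.74 in the liver and 8.71, 8.71 and 8.81 in the spleen. Thymus replicates 1 and 2 stood below the other 7 libraries, and thymus replicate 3 lay within the range of the liver and spleen libraries. The tissue means were 8.09 ± 0.62, 8.87 ± 0.14 and 8.74 ± 0.06 (SD, n = 3 each). The mean over all tested genes was also lowest in thymus replicates 1 and 2, at 6.70 and 6.89 against 7.31 to 7.81 in the other 7 libraries. After subtraction of that mean the list stood at 1.06 ± 0.23 in the thymus, 1.25 ± 0.27 in the liver and 1.11 ± 0.14 in the spleen, with overlapping ranges. In thymus replicates 1, 2 and 3, 6, 4 and 4 of the 41 genes (14.6%, 9.76% and 9.76%) had no recovered read, against 0 to 3 in each liver or spleen library. Of all tested genes 21.6%, 16.5% and 9.35% had no read in the same thymus libraries, and 3.67% to 12.3% in the others. The 41 genes together took 0.165% to 0.276% of the total value of a library.

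**Figure D1:**
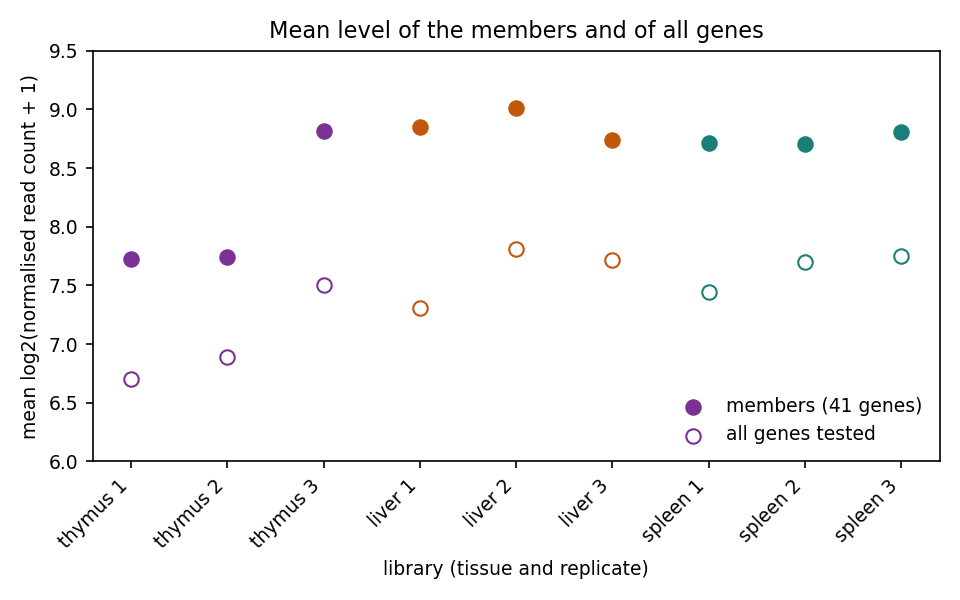
Mean log2(normalised read count + 1) of the 41 listed genes (filled points) and of all tested genes (open points) in each of the 9 libraries. Both means are lowest in thymus replicates 1 and 2, and the listed genes lie above the mean of all genes by 0.85 to 1.54 in every library.

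Levels of different genes were compared per kilobase of exon. Ctsd, which encodes the aspartic protease cathepsin D, was the highest at 4930 normalised reads per kilobase over the 9 libraries, followed by Ctsb at 775, Gabarap at 672, Atg3 at 509 and Rb1cc1 at 413. The lowest were Wipi1 at 1.96, Optn at 6.72, Ctsl at 9.92 and Map1lc3a at 11.5. These lengths are the union of all annotated exons, so a gene with long, rarely used exons is placed too low.

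**Figure D2:**
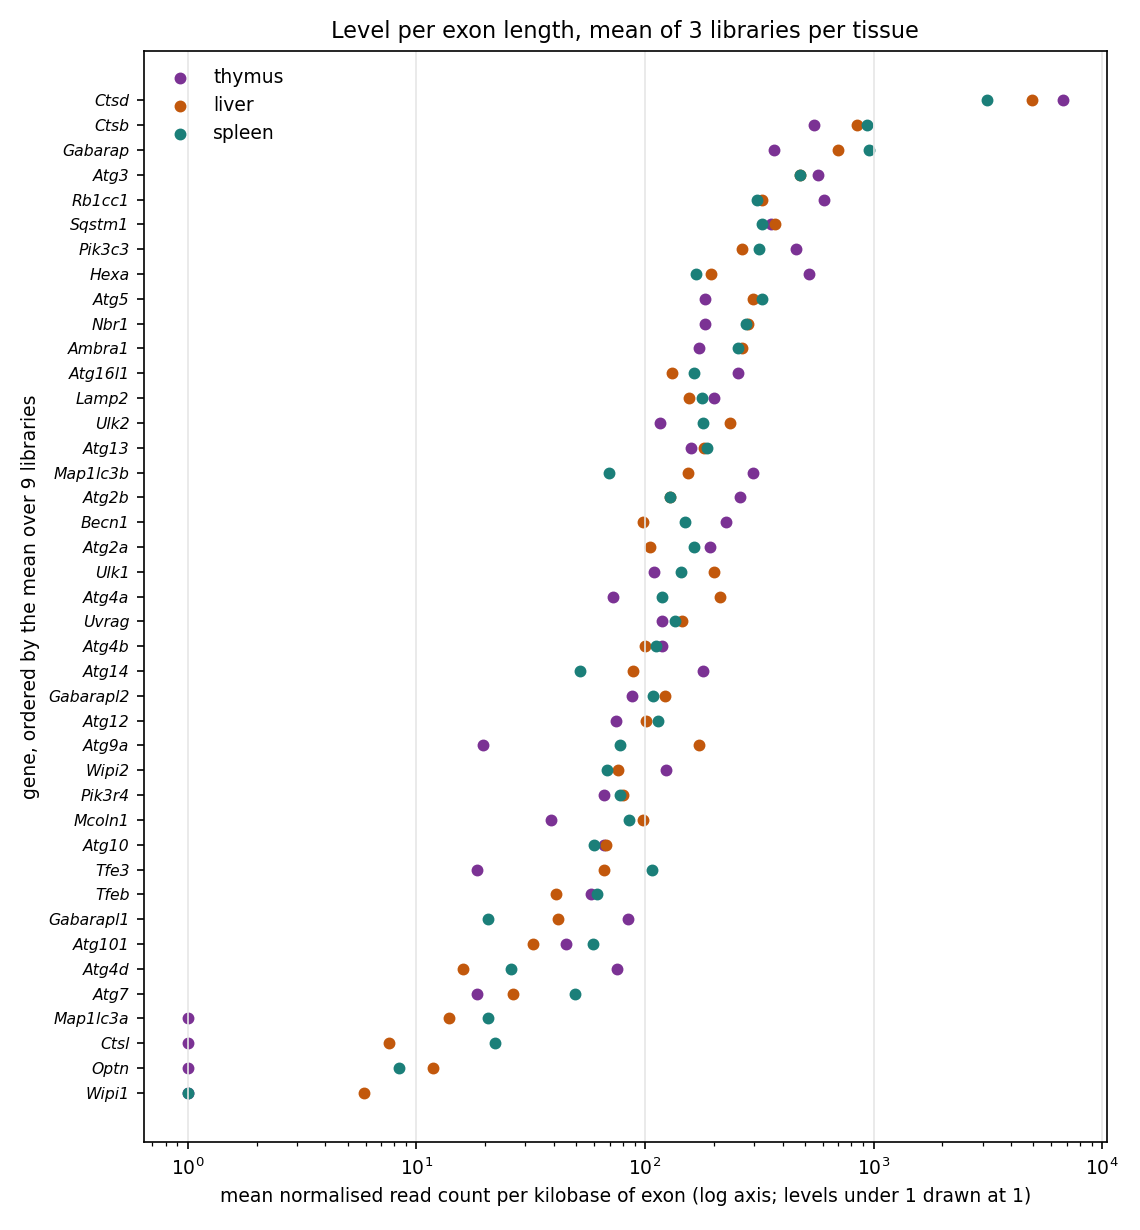
Mean normalised read count per kilobase of exon (log axis, levels under 1 drawn at 1) of the 41 genes, 1 point per tissue, each the mean of 3 libraries. Ctsd lies above all other genes in each tissue, and Map1lc3a, Ctsl, Optn and Wipi1 lie at the lower end.

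The tissues were compared with limma-trend over 13309 genes on log2(value + 1), with Benjamini-Hochberg adjustment over all of them and a threshold of 0.05. Wipi1 was below the filter on low values, so 40 of the 41 genes were tested. None of the 40 passed in any of the 3 comparisons. The share of all genes that passed was 0.323% for liver against thymus, 0.398% for spleen against thymus and 0.015% for liver against spleen. The standard errors of the log2 differences of the 40 genes ran from 0.30 for Ctsd to 2.15 for Atg101. Differences are means of log values, so a single library near 0 weighs heavily. For liver against thymus the log2 difference of Atg101 was 1.11 beside a ratio of means of 0.718, and that of Tfeb was 1.70 beside a ratio of 0.705. The limma calls thus leave each of these genes without a detectable difference at 3 libraries per tissue, which does not show that their levels are equal.

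At an unadjusted p under 0.05 in limma-trend, 5 of the 40 (12.5%) were below that level for liver against thymus, where all genes gave 11.6%. The 5 were Atg9a, Atg4a, Tfe3 and Ctsl, higher in the liver, and Rb1cc1, lower. For spleen against thymus the count was 8 of 40 (20%) against 11.7% of all genes: Atg9a, Gabarap, Tfe3, Ctsb and Ctsl were higher in the spleen, and Rb1cc1, Map1lc3b and Ctsd lower. For liver against spleen it was 2 of 40 (5%) against 3.03%, Map1lc3b and Ctsd, both higher in the liver. The 2 comparisons with the thymus use the same 3 thymus libraries, so their counts are not independent of each other. On recovered reads, edgeR's quasi-likelihood test called 0 of the 40 in each comparison. DESeq2 called 1 for liver against thymus (Ctsl), 3 for spleen against thymus (Map1lc3b, Ctsd and Ctsl) and 0 for liver against spleen. Of all 13309 genes, in that order, edgeR called 22, 37 and 2, and DESeq2 called 462, 525 and 22.

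The 3 values of 1 tissue lay wholly above or below the 3 of the other for 7 of the 40 genes (17.5%) in liver against thymus, where 14.8% of all genes did so. Atg9a, Ctsl and Mcoln1 were higher in the liver, as 9.06% of all genes were, and Rb1cc1, Pik3c3, Atg16l1 and Map1lc3b were lower, as 5.73% were. In spleen against thymus 5 of 40 (12.5%) did not overlap, against 14.8% of all genes: Atg5, Gabarap and Ctsl were higher in the spleen (9.29% of all genes) and Rb1cc1 and Map1lc3b lower (5.49%). In liver against spleen Map1lc3b and Ctsd did not overlap (5%, against 12.7% of all genes), and both were higher in the liver, where 5.87% of all genes were higher and 6.86% lower. The median log2 difference of the 40 genes was 0.58 for liver against thymus and 0.46 for spleen against thymus, where the median of all genes was 0.29 and 0.33. For liver against spleen the medians were 0.05 and -0.02. TMM scaling brought the median of all genes to 0.04 in both comparisons with the thymus.

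**Figure D3:**
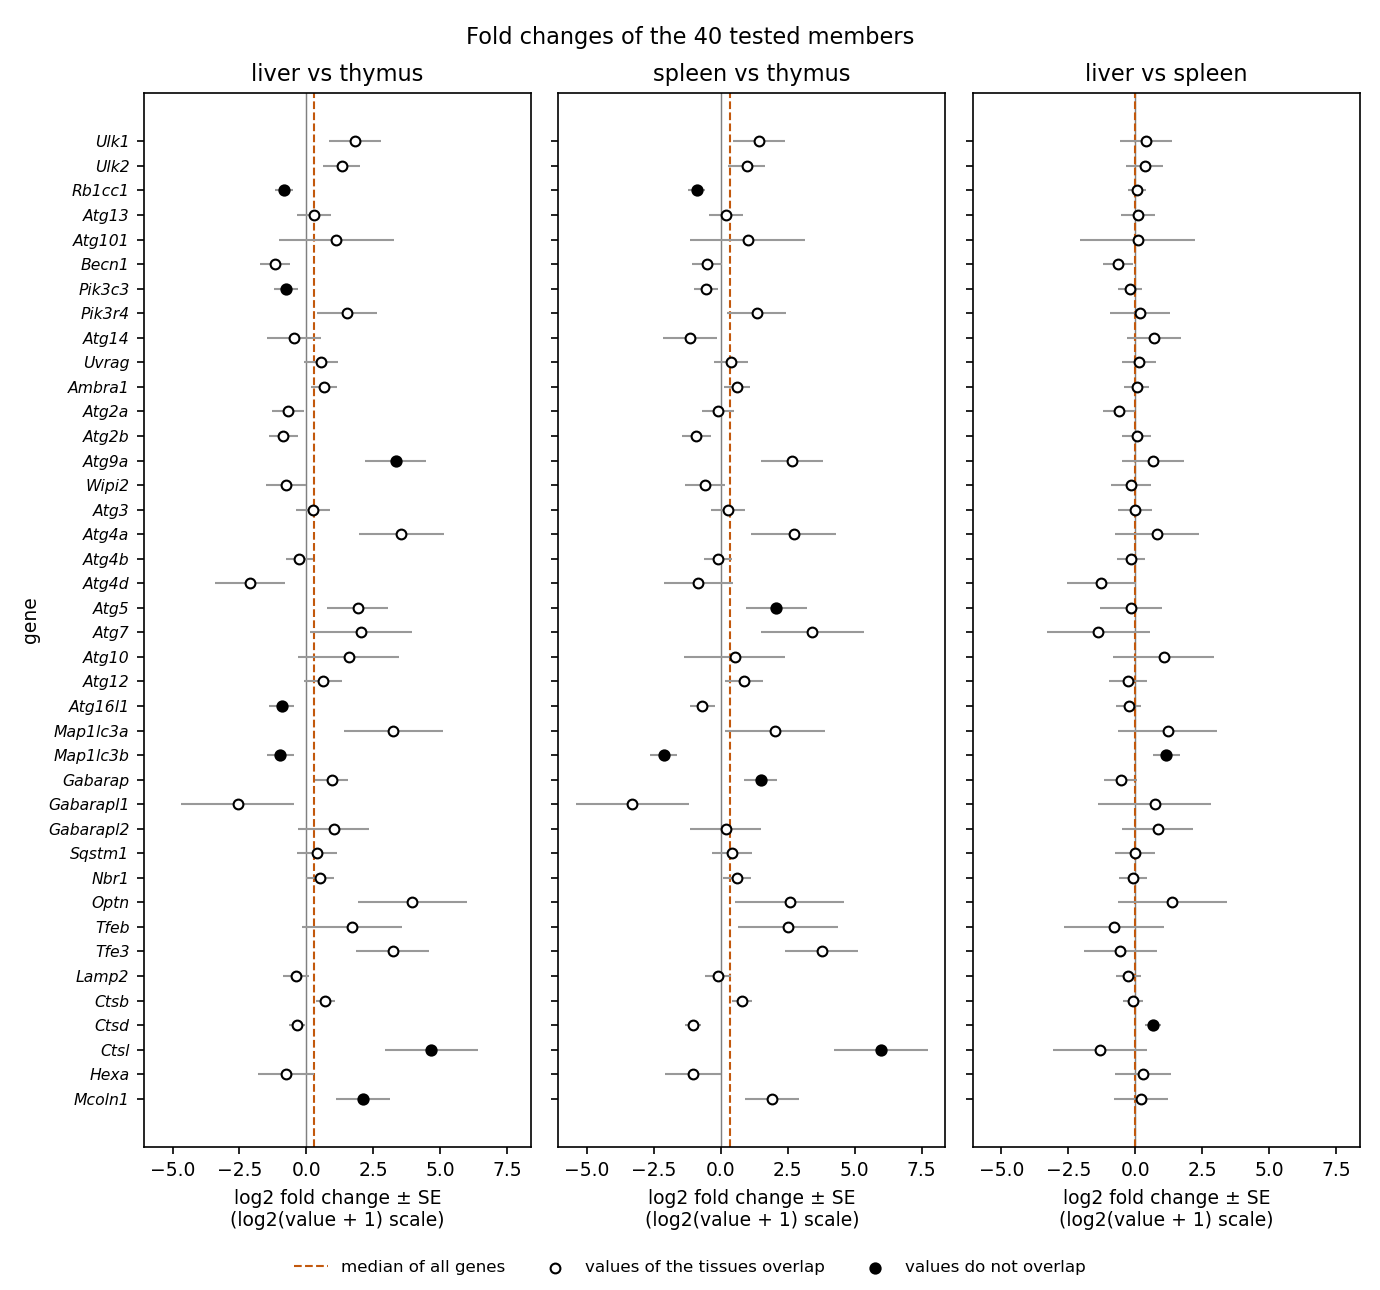
Log2 fold change on the log2(value + 1) scale with its standard error for the 40 tested genes in the 3 comparisons, with the median of all tested genes as a dashed line. Filled points mark genes whose 3 values in 1 tissue do not overlap the 3 in the other, which are 7, 5 and 2 of the 40.

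The ULK1 initiation complex comprises the kinases ULK1 and ULK2 and the subunits RB1CC1 (FIP200), ATG13 and ATG101. Rb1cc1, the scaffold of the complex (chromosome 1, 6206197 to 6276648, plus strand, GRCm38), was 8158, 12940 and 5622 in thymus replicates 1, 2 and 3, 5366, 5214 and 3750 in the liver, and 4365, 4277 and 4938 in the spleen. Every thymus library was above every liver and spleen library, although the thymus values spread over more than those of the other tissues. The ratio of means was 1.86 for thymus over liver (log2 difference -0.83, SE 0.32, limma adjusted p 0.329) and 1.97 for thymus over spleen (-0.90, SE 0.32, limma adjusted p 0.290). Without thymus replicate 2 these log2 differences were -0.52 and -0.58. Ulk1 had 50.5 in thymus replicate 1 and 1626 in thymus replicate 2, and the other 7 libraries lay between 459 and 1998. Ulk2 ran from 190 to 1307 in the thymus and from 720 to 2078 in the other libraries, and Atg13 ran from 390 to 1167 over all 9. Atg101 had no read in thymus replicate 2 and at most 158 elsewhere. The 2 kinases thus had their lowest value in thymus replicate 1, while the scaffold had higher values in the thymus.

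The class III PI3-kinase complex makes the phosphatidylinositol 3-phosphate that recruits later factors, with PIK3C3 (VPS34) as its catalytic subunit and PIK3R4, BECN1, ATG14, UVRAG and AMBRA1 as partners or regulators. Pik3c3 was 1719, 1807 and 2593 in the thymus, 1020, 1220 and 1333 in the liver, and 1863, 1421 and 949 in the spleen. The thymus and liver values did not overlap, with a log2 difference of -0.76 (SE 0.45, limma adjusted p 0.525), and the spleen spanned both. Becn1, which encodes Beclin 1, ran from 859 to 1970 (thymus), 428 to 905 (liver) and 760 to 1255 (spleen). Of the exon bases of Becn1, 43.9% are shared with Cntd1 on the opposite strand, and whether the counting used strand is not given in the sources used here. Pik3r4 (34.7 to 1588), Atg14 (196 to 1873) and Uvrag (331 to 1658) varied over a wide range within the thymus alone. Ambra1 ran from 763 to 2147 over the 9 libraries.

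Among the genes of membrane supply, Atg9a encodes the lipid scramblase that arrives on vesicles. Atg9a was 43.8, 20.9 and 272.1 in the thymus, 2272, 434 and 273.5 in the liver, and 239, 681 and 422 in the spleen. The liver values were above the thymus values, but the lowest liver and the highest thymus library were nearly equal, and liver replicate 1 stood far above the rest. The ratio of means was 8.85 for liver over thymus (log2 difference 3.33, SE 1.15, limma adjusted p 0.288) and 3.98 for spleen over thymus (2.67, SE 1.15, limma adjusted p 0.380). The log2 difference of Atg9a between liver and thymus was 2.42 without liver replicate 1 and 2.19 with array weights. Ankzf1 on the opposite strand and Gm29253 on the same strand share 32.6% of the exon bases of Atg9a. Atg2b, a lipid transfer protein gene, was 1319, 5331 and 3889 in the thymus, 2260, 1858 and 1097 in the liver, and 1069, 2749 and 1394 in the spleen. All 3 tissues overlapped for Atg2b, as they did for Atg2a (557 to 2074) and Wipi2 (245 to 2542). Wipi1, a phosphoinositide-binding gene, had reads in liver replicates 1 and 2 (88 reads and 1 read) and none in the other 7 libraries.

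The conjugation genes encode the E1 enzyme ATG7, the E2 enzymes ATG3 and ATG10, the ATG12-ATG5-ATG16L1 ligase and the ATG4 proteases that trim ATG8 proteins. Atg16l1 was 3235, 2445 and 1708 in the thymus, 1064, 1197 and 1532 in the liver, and 2485, 1236 and 1036 in the spleen. The thymus values were above all liver values (log2 difference -0.93, SE 0.47, limma adjusted p 0.457) and overlapped those of the spleen. Atg4a was 72.9, 1.19 and 506 in the thymus, 931, 488 and 285 in the liver, and 419, 147 and 383 in the spleen. Thymus replicate 2 held a single recovered read of Atg4a, and the 3 tissues overlapped (liver against thymus log2 difference 3.55, SE 1.58, limma adjusted p 0.406). That log2 difference was 1.39 without thymus replicate 2, 5.32 without thymus replicate 3, 1.56 with edgeR and 1.55 with DESeq2. Atg5 had 13.9 in thymus replicate 2 and 584 to 889 in the other 8 libraries, so that the spleen (713 to 830) lay above the thymus only by a narrow gap to thymus replicate 3 at 697. Atg4b was the steadiest of these genes, with means of 979.5 ± 38.3 in the thymus, 825 ± 134 in the liver and 925 ± 236 in the spleen (SD, n = 3 each). Atg7 had no read in thymus replicate 1 and ran from 19.3 to 579 elsewhere. Atg10 had a single read in thymus replicate 2 and at most 241 elsewhere, while Atg12 (261 to 1136) and Atg4d (24.3 to 1311) each had their highest value in the thymus. Atg3, the highest of these genes per kilobase, was 396, 3573 and 1411 in the thymus, 1224, 1400 and 1902 in the liver, and 1701, 1350 and 1482 in the spleen. Thymus replicates 1 and 2 held its lowest and highest values.

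**Figure D4:**
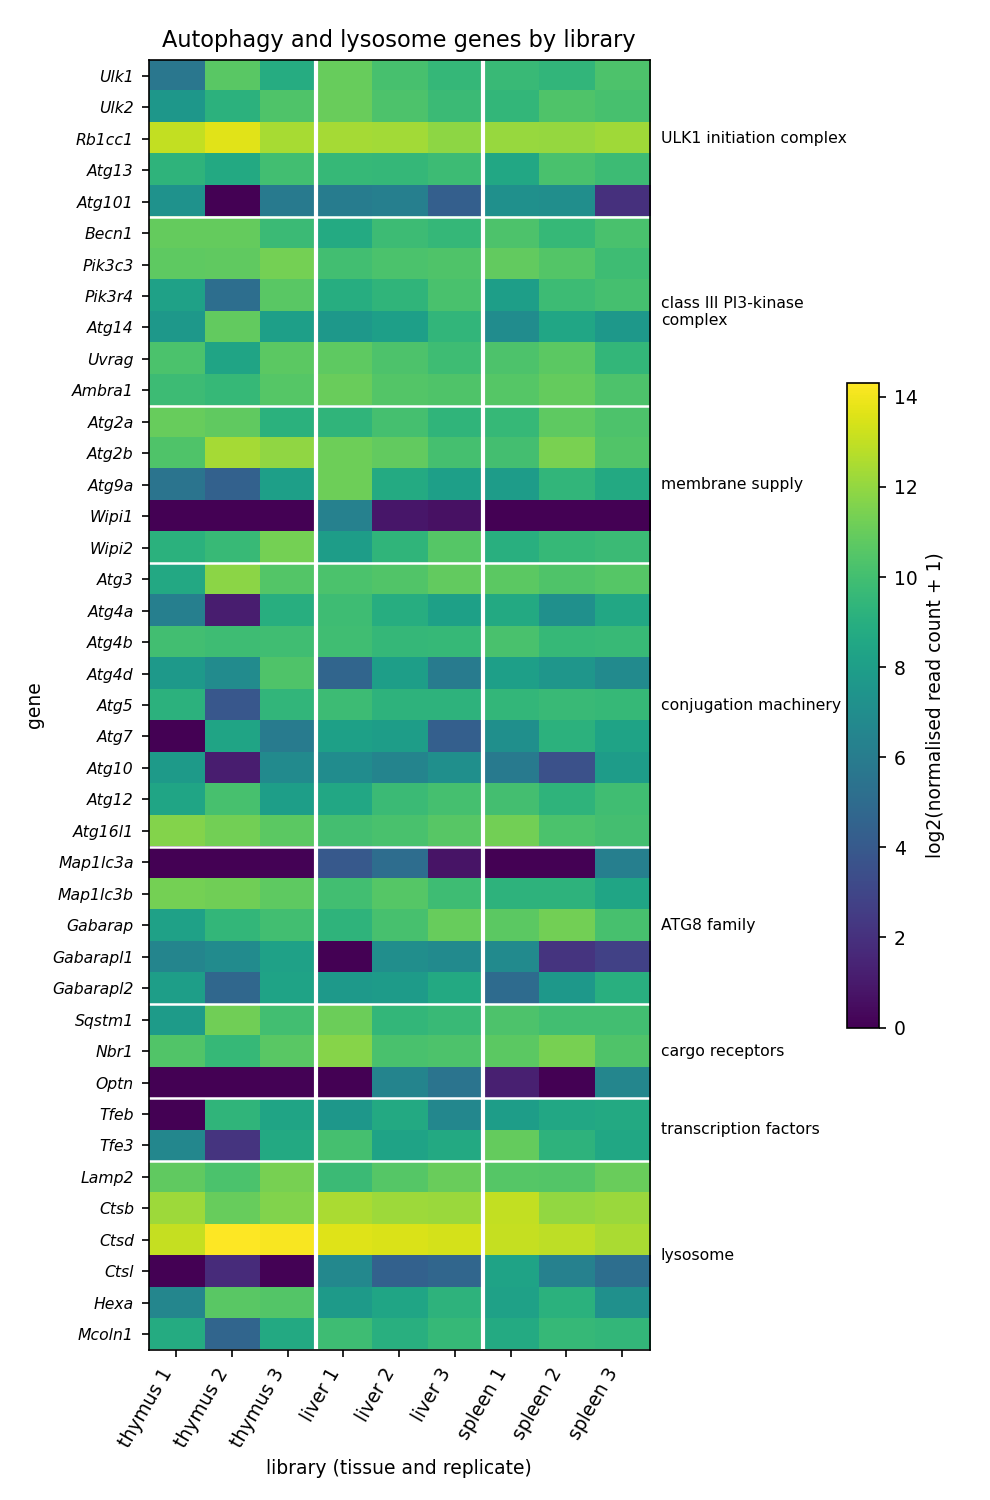
Log2(normalised read count + 1) of the 41 genes (rows, grouped by role) in the 9 libraries (columns). Dark cells mark values near 0, which are most frequent in thymus replicates 1 and 2, and the row of Ctsd is the brightest.

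The ATG8 family is the set of small proteins that are bound to lipid on the autophagosome. Map1lc3b, which encodes LC3B (chromosome 8, 121590361 to 121598760, plus strand), was 2562, 2419 and 1739 in the thymus, 1005, 1518 and 939 in the liver, and 614, 614 and 340 in the spleen. No library of 1 tissue overlapped those of another, and the order was thymus, liver, spleen. The means were 2240 ± 440, 1154 ± 317 and 523 ± 158 (SD, n = 3 each). The thymus mean was 4.28 times the spleen mean, with a log2 difference of -2.13 (SE 0.51, unadjusted p 0.000766, limma adjusted p 0.106), the lowest adjusted p of the list in that comparison. Thymus over liver gave a ratio of 1.94 (log2 difference -0.97, SE 0.51, limma adjusted p 0.472), and liver over spleen a ratio of 2.21 (1.16, SE 0.51, limma adjusted p 0.9999). For spleen against thymus, Map1lc3b passed under TMM scaling (adjusted p 0.0452) and DESeq2 (9.9e-05), and over all alternatives its adjusted p ran from 9.9e-05 to 0.413.

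The other 4 ATG8 genes did not separate all 3 tissues. Gabarap was 287, 726 and 1018 in the thymus, 638, 1152 and 2065 in the liver, and 1671, 2436 and 1152 in the spleen. The spleen values were above all thymus values, with a ratio of means of 2.59 (log2 difference 1.49, SE 0.62, limma adjusted p 0.358), and the liver overlapped both. Without thymus replicate 1 the log2 difference was 0.96. Per kilobase of exon the spleen mean of Gabarap was 951 and that of Map1lc3b 69.6, while in the thymus the levels were 367 and 298. Not divided by length, the means were 1753 and 523 in the spleen and 677 and 2240 in the thymus. The order of the 2 genes in the thymus thus depends on the exon lengths used, 1844 bases for Gabarap and 7517 for Map1lc3b. Gabarapl1 was 92.0, 121 and 293 in the thymus, 0, 135 and 116 in the liver, and 115, 3.38 and 5.91 in the spleen. Gabarapl2 was 265, 26.6 and 318 in the thymus, 203, 229 and 418 in the liver, and 31.3, 200.1 and 526 in the spleen. The tissues overlapped for Gabarapl1 and Gabarapl2. Map1lc3a had no read in the 3 thymus libraries, 14.8 and 33.6 in liver replicates 1 and 2 and no read in liver replicate 3. In the spleen Map1lc3a had no read in replicates 1 and 2 and 72.8 in replicate 3. Map1lc3a passed the filter only through liver replicates 1 and 2 and spleen replicate 3, so it could not have stood higher in the thymus. Its log2 differences from the thymus were 3.24 for the liver (SE 1.85, limma adjusted p 0.510) and 2.03 for the spleen (SE 1.85, limma adjusted p 0.696). With the thymus alone set to a floor of 3 reads per library, the ratios of means were 4.63 and 6.88. These ratios are not lower bounds, because liver replicate 3 and spleen replicates 1 and 2 also had no read.

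Cargo receptors tether ubiquitinated material to ATG8 proteins. Nbr1 was 1406, 774 and 1602 in the thymus, 3315, 1199 and 1285 in the liver, and 1656, 2685 and 1350 in the spleen, and the tissues overlapped. Sqstm1, which encodes p62, was 234, 2352 and 1004 in the thymus, 2187, 704 and 843 in the liver, and 1272, 999.6 and 1013 in the spleen, with means of 1197 ± 1072, 1244 ± 819 and 1095 ± 153 in thymus, liver and spleen (SD, n = 3 each). Optn, which encodes optineurin, had no read in any thymus library, liver replicate 1 or spleen replicate 2. Optn was 87.8 and 45.1 in liver replicates 2 and 3 and 1.43 and 92.6 in spleen replicates 1 and 3.

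Each transcription factor of the list had few or no reads in 1 thymus library. Tfe3 (chromosome X, 7762560 to 7775202, plus strand) was 96.4, 3.50 and 410 in the thymus, 1109, 312 and 419 in the liver, and 1987, 622 and 371 in the spleen. Thymus replicates 1 and 2 were below all liver and spleen libraries, and thymus replicate 3 lay among them. The ratio of means was 3.61 for liver over thymus (log2 difference 3.22, SE 1.37, limma adjusted p 0.384) and 5.84 for spleen over thymus (3.77, SE 1.37, limma adjusted p 0.295). These log2 differences were 1.39 and 1.95 without thymus replicate 2, 1.86 and 2.55 with edgeR, and 1.95 and 2.56 with array weights. Tfeb had no read in thymus replicate 1, 654 and 328 in thymus replicates 2 and 3, and ran from 98.1 to 410 in the liver and spleen. The mRNA level does not report the location of either protein in the cell.

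The lysosomal genes of the list encode 3 cathepsins, the hexosaminidase subunit HEXA, the membrane protein LAMP2 and the calcium channel MCOLN1. Ctsd (chromosome 7, 142375911 to 142388038, minus strand), whose promoter is shown above, was 8596, 20452 and 18398 in the thymus, 12358, 11605 and 10860 in the liver, and 8693, 7512 and 5830 in the spleen. The liver lay above the spleen in every library, thymus replicates 2 and 3 were the highest of all, and thymus replicate 1 was just under the highest spleen value. The thymus mean was 2.15 times the spleen mean (log2 difference -1.03, SE 0.30, limma adjusted p 0.194), and the liver mean was 1.58 times it (0.68, SE 0.30, limma adjusted p 0.9999). Ctsd passed for spleen against thymus without thymus replicate 1 (log2 difference -1.42, adjusted p 0.0205), under TMM scaling (adjusted p 0.0494) and under DESeq2 (0.0362), within a range of 0.0205 to 0.552 over all alternatives. Gm49369 on the same strand shares 34.4% of the exon bases of Ctsd, and reads from that overlap cannot be assigned to either gene from the table.

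Ctsl, the cysteine protease cathepsin L (chromosome 13, 64359337 to 64370890, minus strand), had 0, 2 and 0 recovered reads in thymus replicates 1, 2 and 3. It had 118, 24 and 4 reads in the liver (102.7, 20.6 and 25.1 normalised reads) and 423, 113 and 59 reads in the spleen (315, 77.8 and 35.3). Every liver and spleen library was above every thymus library. Per recovered read, the ratio to the thymus was 82.4 in the liver (95% exact interval 22.4 to 687) and 194 in the spleen (53.5 to 1607), intervals that cover counting error only. Most of these reads came from 1 library per tissue, and the ratio was 31.6 (7.98 to 274) without liver replicate 1 and 85.1 (23.2 to 708) without spleen replicate 1. In the fit over libraries the log2 differences were 4.67 (SE 1.74, limma adjusted p 0.316) and 5.99 (SE 1.74, limma adjusted p 0.194), or 2.20 and 3.34 with a pseudocount of 10. DESeq2 gave Ctsl an adjusted p of 0.0469 for the liver and 0.00488 for the spleen, within ranges of 0.0469 to 0.554 and 0.00488 to 0.445 over all alternatives. Gm47123 and Gm49230 overlap 26.8% of its exon bases.

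Ctsb, the cysteine protease cathepsin B, was 4812, 2031 and 3074 in the thymus, 5902, 4784 and 4676 in the liver, and 8179, 4064 and 4681 in the spleen. The tissues overlapped through thymus replicate 1, and the spleen mean was 1.71 times the thymus mean (log2 difference 0.79, SE 0.37, limma adjusted p 0.424). Ctsl, Ctsb and Tfe3 each had their highest value in spleen replicate 1, the library with the highest sum of myeloid markers. That library held the highest value of 4 of the 40 tested genes, Atg4b (1197) being the other, against 0 to 9 elsewhere. In spleen replicate 1 Csf1r was 1297, C1qc 883 and Adgre1 405. All myeloid markers in the table were highest in that library except Lyz2, which was 13.4 there and 404 in liver replicate 3. The sum of B cell and plasma cell markers was also high in spleen replicate 1 (7185, with Jchain at 4634). Within the liver Ctsl, Ctsb and Tfe3, and also Atg4b (979), were highest in liver replicate 1. The sum of B cell and plasma cell markers there was 12118, with Jchain at 11333. In spleen replicate 2, with sums of 24.6 for myeloid and 341 for B cell and plasma cell markers, Ctsl was 77.8, Ctsb 4064 and Tfe3 622. In liver replicate 2, with sums of 24.7 and 508, they were 20.6, 4784 and 312. Without spleen replicate 1 the log2 differences from the thymus were 5.13 for Ctsl, 3.09 for Tfe3 and 0.49 for Ctsb, and without liver replicate 1 they were 3.96 for Ctsl and 2.68 for Tfe3 in the liver. That of Ctsb for the spleen was 0.48 without thymus replicate 2 and with TMM scaling. The part of either cell type in Ctsl, Tfe3 and Ctsb was not tested. In bulk RNA, fewer cells of a type and less RNA per cell cannot be told apart.

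Mcoln1 was 439.5, 24.3 and 419 in the thymus, 947, 529 and 757 in the liver, and 439, 785 and 706 in the spleen. All liver values were above all thymus values, with a ratio of means of 2.53 (log2 difference 2.12, SE 1.0, limma adjusted p 0.431), and the lowest spleen library equalled the highest thymus library to within 1 unit. Lamp2 ran from 863 to 2704 with means of 1911 ± 749, 1496 ± 644 and 1694 ± 387 in thymus, liver and spleen (SD, n = 3 each). Hexa was 95.3, 1590 and 1450 in the thymus and ran from 147 to 606 in the liver and spleen.

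**Figure D5:**
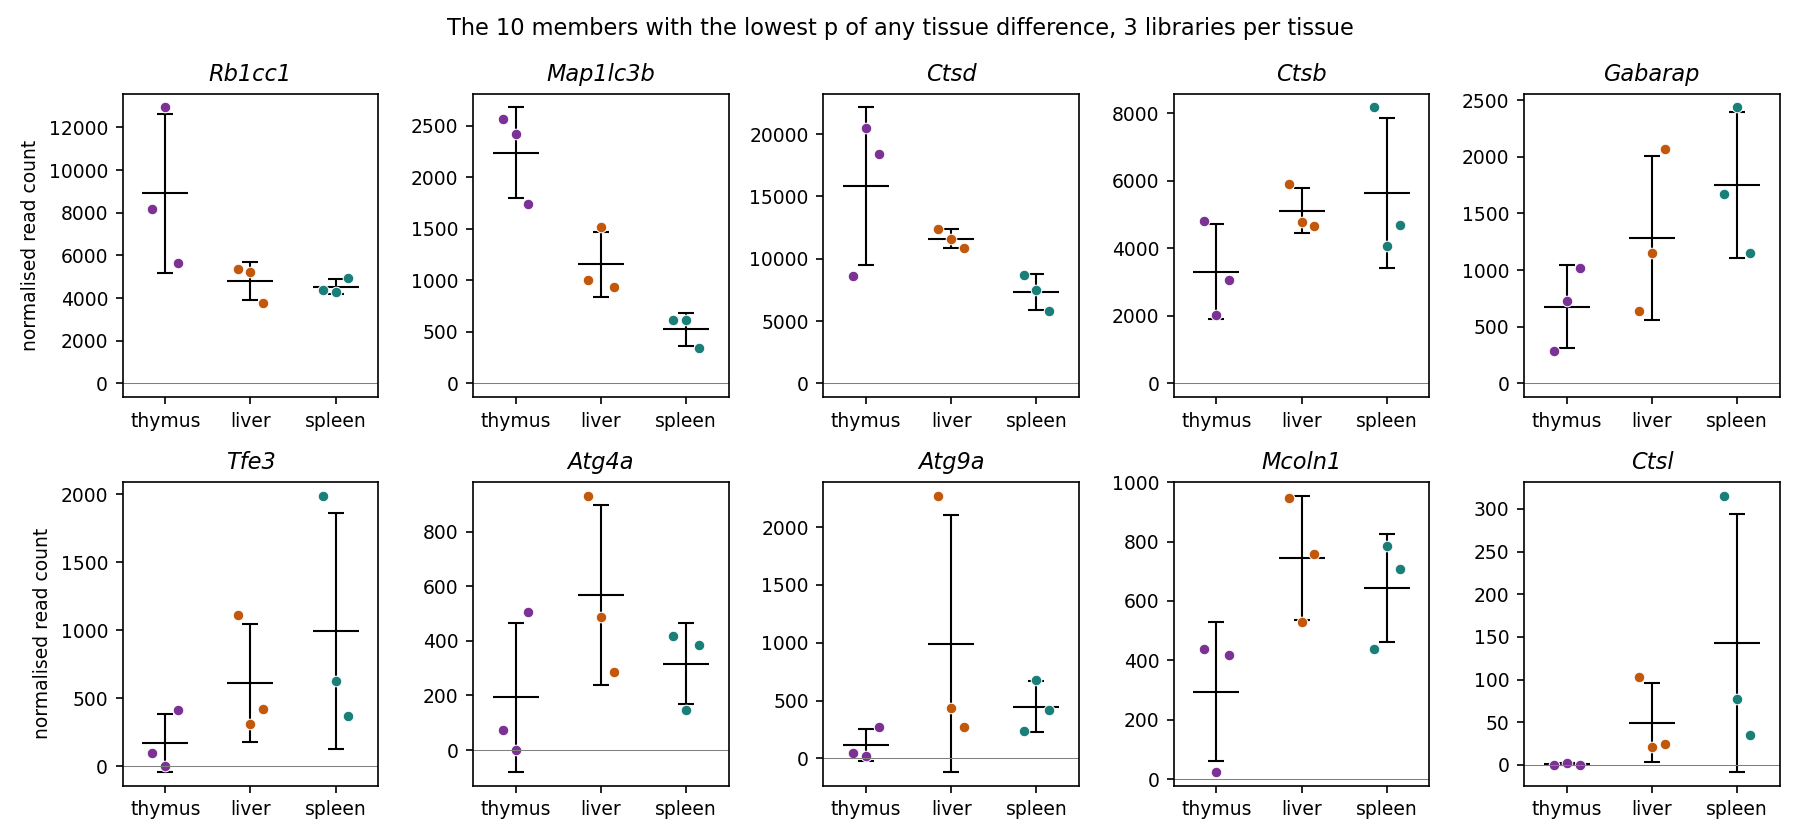
Normalised read counts of the 10 genes with the lowest p of any tissue difference, 1 point per library and 1 bar per tissue mean with its SD (n = 3), on linear axes that differ between genes. Map1lc3b separates the 3 tissues in every library, Rb1cc1 is higher in the thymus, and Ctsl lies near 0 in the thymus.

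The genes of the list varied most in the thymus. The median SD of log2(value + 1) between the 3 libraries of a tissue was 1.13 in the thymus, 0.66 in the liver and 0.56 in the spleen, and for all tested genes it was 1.34, 0.76 and 0.77. The thymus had the largest SD for 27 of the 40 genes (67.5%) and for 60.3% of all genes. Thymus replicate 2 held the lowest value of 13 of the listed genes and the highest of 9, and thymus replicate 1 the lowest of 9. Liver replicate 1 held the highest of 9 and the lowest of 6. The same counts were not made over all genes.

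The wider pathway was read from 7 further lists of 163 genes, of which 151 were tested. None passed in limma-trend in any comparison. At an unadjusted p under 0.05 there were 22 for liver against thymus (10 higher and 12 lower in the liver), 21 for spleen against thymus (10 higher and 11 lower in the spleen) and 7 for liver against spleen (4 higher and 3 lower in the liver). These are 14.6%, 13.9% and 4.64% of the 151, beside 11.6%, 11.7% and 3.03% of all genes.

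Among other lysosomal hydrolases, 37 were tested, and the 2 with the lowest p of any tissue difference were higher in the thymus. Ctsw, a cathepsin of cytotoxic lymphocytes, was 21070, 7885 and 10611 in the thymus, 5351, 5216 and 4495 in the liver, and 3954, 4248 and 5308 in the spleen. The thymus values did not overlap the others, with log2 differences of -1.27 for the liver and -1.43 for the spleen (limma adjusted p 0.165 and 0.0858). Ctsc, which encodes the dipeptidyl peptidase that activates granzymes, was 4559, 3664 and 2263 in the thymus, 1131, 1020 and 885 in the liver, and 1467, 1036 and 680 in the spleen. Its log2 differences were -1.74 and -1.73 (limma adjusted p 0.177 and 0.164). The thymus values of Ctsc did not overlap those of the liver or the spleen.

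Of 18 V-ATPase genes, which acidify the lysosome, Atp6v0d2 and Atp6v1d had the lowest p. Atp6v0d2 was 109, 479 and 497 in the spleen, at most 29.6 in the liver and at most 4.66 in the thymus (spleen against thymus log2 difference 7.35, SE 1.82, limma adjusted p 0.118). Its spleen values stood above those of both other tissues, and spleen replicates 2 and 3, with myeloid sums of 24.6 and 265, held more of it than spleen replicate 1. The part of myeloid cells in its level was not tested. Atp6v1d was 489, 949 and 1413 in the thymus, 1581, 1185 and 1267 in the liver, and 1845, 1796 and 1802 in the spleen.

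Of 21 lysosomal membrane genes, Npc1, a cholesterol exporter, was 5690, 2834 and 4314 in the thymus, 1422, 2832 and 2223 in the liver, and 1432, 1187 and 2525 in the spleen (limma adjusted p 0.402 and 0.246 against the thymus). Laptm5 was highest in the liver at 30889, 25017 and 25285, against thymus and spleen ranges of 15338 to 19887 and 12836 to 21311 (limma adjusted p 0.295 against the thymus). Neither passed, although the liver values of Laptm5 did not overlap those of either other tissue. Of 31 genes of mTORC1 and nutrient sensing, Mlst8, an mTOR-binding subunit, was 682, 811 and 1115 in the thymus, 140, 109 and 159 in the liver, and 84.9, 257 and 80.9 in the spleen (limma adjusted p 0.294 and 0.257). Lamtor1, the lysosomal anchor of the Ragulator complex, stood the other way, with 33.7, 0 and 37.7 in the thymus (no read in replicate 2), 234, 276 and 381 in the liver, and 1086, 293 and 207 in the spleen (limma adjusted p 0.262 and 0.201).

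Of 16 fusion genes, Tecpr1, a tethering factor, was 1921, 2486 and 1962 in the thymus, 3818, 5277 and 3385 in the liver, and 3925, 4907 and 6001 in the spleen. Both tissues lay above the thymus in every library (log2 differences 0.95 and 1.21, limma adjusted p 0.290 and 0.168). Vps41, a HOPS subunit, ran from 1190 to 2177 (thymus), 298 to 850 (liver) and 833 to 1157 (spleen). Of 11 further receptors, Retreg1, an ER-phagy receptor, had thymus, liver and spleen ranges of 2290 to 5333, 3016 to 5075 and 1485 to 1947, and Tollip, a ubiquitin-binding adaptor, of 269 to 1347, 1304 to 2370 and 1049 to 1721. Of 17 other factors, Bcl2, whose protein binds Beclin 1, had ranges of 9265 to 11634, 10881 to 16418 and 6137 to 7606 in the same order. Trp53inp2 had at most 6.32 in the thymus, 324, 84.9 and 146 in the liver, and 0, 44.0 and 77.3 in the spleen. None of these 6 had an adjusted p under the threshold in limma.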

How the data were processed

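Per the submitters' processing notes, the tools were Trimmomatic 0.33, TopHat2 2.1.0, HTSeq 0.6.1 and edgeR, with build mm10. Per the labels' protocols, ultralow-input libraries of total RNA were sequenced for 76 cycles. The authors deposited 1 table of normalised read counts, treated as a signal because its values are not whole, and how it was scaled is not given in the sources used here. Columns were matched to libraries by tissue and replicate number, and the name of the thymus replicate 2 column alone starts with 1 more letter, which is unexplained. Small values fell on equally spaced levels, from which reads were recovered by rounding. Within 0.1 reads of a whole number lay 98.5% to 100% of values of at most 20 reads, but 74.8% in liver replicate 3.

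A gene was tested if its value reached 1 in at least 3 samples. One limma-trend fit (limma 3.58.1, R 4.3.3) on log2(value + 1) took all 9 libraries with a term per tissue, two-sided. The pseudocount shrinks the fold changes of low genes, and as means of logs they can exceed or oppose the ratio of means where a library is near 0. A tissue with no read was given a floor of 3 reads per library. The script was tested on simulated data. Alternatives used edgeR 4.0.16 and DESeq2 1.42.0 on recovered reads, other scalings, filters and pseudocounts, and left out each library. Annotation was GENCODE M21 (GRCm38).

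The genes and lists were chosen with earlier results of these data known. Values in every library are printed for the 10 genes with the lowest p of any tissue difference, the gene of each role with the highest value (not divided by length), the ATG8 family and genes without overlap in at least 2 comparisons. For each wider list the 2 genes with the lowest p are named. Other single genes were named after their values were seen.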

Additional observations from a re-analysis of the deposited data

How the results depend on the processing

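In limma-trend 43 genes passed for liver against thymus, 53 for spleen against thymus and 2 for liver against spleen, and 23 alternatives were run for each. In that order, DESeq2 gave 462, 525 and 22 genes, the fit to only the 6 samples compared 16, 11 and 7, and leaving out spleen replicate 1 and liver replicate 1 together (chosen after seeing the data) 2, 13 and 0. Beyond these, edgeR gave 22 for liver against thymus, TMM scaling 89 for spleen against thymus, and array weights 18 for liver against spleen. Leaving out each library in turn gave 7 to 155, 9 to 134 and 0 to 3 genes. The highest counts, 155 and 134, came without thymus replicate 3, and counts lower by more than 1.5 times came without any 1 liver or spleen library for liver against thymus, without any 1 spleen library, liver replicate 1 or liver replicate 3 for spleen against thymus, and without liver replicate 1 or 3 for liver against spleen. TMM scaling changed the split for liver against thymus from 27 higher and 16 lower to 19 higher and 25 lower, and for spleen against thymus from 25 higher and 28 lower to 26 higher and 63 lower, where equal library totals gave 22 higher and 16 lower. Of the 40 listed genes, 1 passed for liver against thymus with DESeq2, and for spleen against thymus 2 passed with TMM scaling, 3 with DESeq2 and 0 to 1 with 1 library left out (1 without thymus replicate 1). The cause was not tested. The 15 single-gene results followed were those with an unadjusted p under 0.05 in limma-trend, chosen from the same data. All kept their direction under all 23 alternatives, but several alternatives could not change it. The replicate block, the term for high Xist libraries, the fit to only the 6 samples compared and leaving out a library of the tissue not compared gave the same log2 differences.

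The mean of the listed genes in the thymus, 8.09, was 8.58 with a pseudocount of 10, 8.27 with TMM scaling and 7.73 to 8.28 with 1 library left out. The liver mean, 8.87, was 9.04 with a pseudocount of 10. The spleen mean, 8.74, was 8.81 with equal library totals, 8.65 with TMM scaling and 8.69 with a pseudocount of 0.5. With a pseudocount of 10 the spleen mean was 8.998. The changes given for the liver and spleen are those larger than the SD between libraries, 0.14 and 0.06. In the thymus that SD was 0.62, and the larger change to 8.58 stayed within it. The median difference of the listed genes minus that of all genes ran from -0.12 to 0.49 for liver against thymus and from -0.24 to 0.33 for spleen against thymus, so its sign was not kept. Same-numbered libraries had deviations that correlated by -0.00073 to 0.0891, and libraries of unlike number by -0.0866 to 0.0484. Same-numbered pairs were all positive except thymus with spleen replicate 2, and most pairs of unlike number were negative. The deviations sum to 0 over the 3 libraries of a tissue, so the signs of the 2 kinds of pair are not independent. The correlations were small, and the main fit did not pair libraries by number. Whether same-numbered libraries share a source is not given in the labels. A replicate block gave 42, 55 and 4 genes and 0 listed genes. A term for the libraries numbered 2, where Xist was 84543 to 107736, also gave 0 listed genes, although thymus replicate 3 had 16531. The depth of liver replicate 3 limits low genes there to steps of 6.04.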
